A study of Mus musculus with 90 samples.

Results

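Arc, Npas4, Homer1 and Nptx2, which neurons switch on when they are strongly driven, were chosen by symbol and followed across every region, time and stimulus of a mouse social-encounter study. They are 4 of the 37991 genes of the count table, each found under 1 mouse Ensembl identifier (ENSMUSG00000022602 for Arc, ENSMUSG00000045903 for Npas4, ENSMUSG00000007617 for Homer1 and ENSMUSG00000059991 for Nptx2). The annotation places Arc on chromosome 15, Npas4 on chromosome 19, Homer1 on chromosome 13 and Nptx2 on chromosome 5. They were picked as known neuronal activity genes, by name, at a time when earlier results of these data were known.

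Synaptic input that depolarises a neuron lets calcium in, and the calcium signal starts transcription of a small set of genes within minutes. Npas4 encodes a transcription factor that responds to calcium entry in neurons and sets up inhibitory synapses. Arc and Homer1 encode proteins of the postsynaptic side. Arc promotes the removal of AMPA-type glutamate receptors from synapses, and Homer proteins tie metabotropic glutamate receptors to Shank scaffolds and to calcium stores. A short, activity-induced Homer1 form, Homer1a, breaks those links. Nptx2 encodes a secreted pentraxin that gathers AMPA receptors at excitatory synapses, many of them on interneurons. These genes are widely used to mark recently active neurons in cortex, amygdala and hypothalamus.

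Resident C57BL/6J males, housed with a C57BL/6J female until shortly before the test, met for 5 min either a BALB/cJ male held in a wire mesh cage (intruder) or the same cage with a paper cup inside (control). Frontal cortex, amygdala and hypothalamus were dissected 30, 60 or 120 min later, and stranded poly(A) RNA libraries were read from single ends. The 90 libraries came from 32 animals, 28 of which gave all 3 regions, and made 18 groups of 5 libraries each, except that the 30 min control hypothalamus had 3 and each 120 min frontal cortex group had 6. Every control had also lost its female companion and received a cage, so an unhandled baseline was not analysed here, and the ages of the animals were not given in the sources used here. The labels name 1 animal per library, whereas the design text speaks of pooled RNA, so whether a library holds RNA of more than 1 animal is not settled. Libraries of different regions with the same time, stimulus and number were taken to come from the same animal.

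The depth of a library, as reads assigned to genes, ran from 38.6 to 58.86 M with a median of 49.01 M. The lowest library held 553 reads for Arc, 289 for Npas4, 1650 for Homer1 and 783 for Nptx2, and all 4 passed the filter on low counts in all 3 regions. All 28 libraries of 30 min carry the tag ISO in their column names and all 62 libraries of 60 and 120 min carry the tag CERV, although the design text describes 1 way of killing for all animals. A difference between 30 min and later therefore cannot be told apart from whatever the tags stand for, while 60 and 120 min share a tag. The leading index of the libraries also follows the groups closely, and in the frontal cortex at 120 min controls had 1 index and intruder libraries another. The fourth intruder library of the 30 min frontal cortex stood apart, with the highest Arc, Npas4 and Nptx2 of all libraries, and the main values that move with it are also given without it.

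Defining markers set the hypothalamus apart from the other regions but the amygdala only in part. A score over 9 hypothalamic markers (Oxt, Avp, Pmch, Hcrt, Pomc, Agrp, Sim1, Nkx2-1 and Hcrtr2; mean log2 of CPM + 1) ran from 4.92 to 6.15 in hypothalamus, against at most 2.32 in the other regions. A score over 7 cortical excitatory neuron markers ran from 6.76 to 7.32 in frontal cortex and from 4.49 to 5.75 in amygdala. The score over 7 amygdala markers ran from 4.56 to 5.38 in amygdala, from 3.72 to 4.81 in frontal cortex and from 4.31 to 4.83 in hypothalamus, so that the regions overlapped. Markers of neighbouring tissue varied widely among libraries: the striatal score ran from 4.33 to 8.06 in amygdala and from 3.5 to 7.07 in frontal cortex, and the choroid plexus score from 1.76 to 6.49 in amygdala. In bulk tissue such as this, fewer cells of a type and less RNA per cell cannot be told apart.

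Promoter sequence was searched for Npas4 and Homer1 alone, and Arc and Nptx2 were not searched here. It is shown because the core TGACG of the cAMP response element, through which calcium signals reach many activity genes, recurs in both windows. The 250 bases before the transcription start were read 5′ to 3′ in the direction of the gene from RefSeq on GRCm38.p6 (Npas4, chr19:4989972-4990221, minus strand; Homer1, chr13:93303507-93303756, plus strand). Capitals mark TGACG or, where it lies on the opposite strand, CGTCA.
Npas4: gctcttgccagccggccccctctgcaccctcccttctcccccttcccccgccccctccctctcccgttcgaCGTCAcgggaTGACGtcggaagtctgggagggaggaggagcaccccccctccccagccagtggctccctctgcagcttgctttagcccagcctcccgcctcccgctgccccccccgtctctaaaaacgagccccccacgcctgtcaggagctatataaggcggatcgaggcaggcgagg
Homer1: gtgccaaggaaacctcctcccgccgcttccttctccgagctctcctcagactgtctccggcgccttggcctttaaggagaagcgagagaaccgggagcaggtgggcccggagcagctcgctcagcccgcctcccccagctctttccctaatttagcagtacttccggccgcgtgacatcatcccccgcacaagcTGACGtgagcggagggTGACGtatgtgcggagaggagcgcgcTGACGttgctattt
Npas4 held the core 2 times, on opposite strands, 179 and 169 bases before the start, and Homer1 held it 3 times on the strand of the gene, at 56, 40 and 14 bases. Of 32851 mouse promoter windows of this length, 17.8% held the core at least once on either strand, 3.9% at least 2 times and 0.688% at least 3 times. Among the rapid activity-induced transcription factors described below, 7 had a promoter in the same table, and 7 of these held the core. No other motif that was searched on both strands (the full element TGACGTCA, in 1.55% of windows; the AP-1 site TGANTCA, in 6.75%; TATAAA, in 12.4%; and the CArG box, in 1.47%) matched in either window, and the core can be part of the full element. A match describes letters only and is not a binding site.

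Each of the 4 genes was highest in frontal cortex, intermediate in amygdala and lowest in hypothalamus by its mean, and the steps were steepest for the postsynaptic genes Arc and Homer1. The levels, in CPM (counts scaled to library size with TMM factors), are shown for every library in the plot of the 4 genes by region, time and stimulus.

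**Figure D1:**
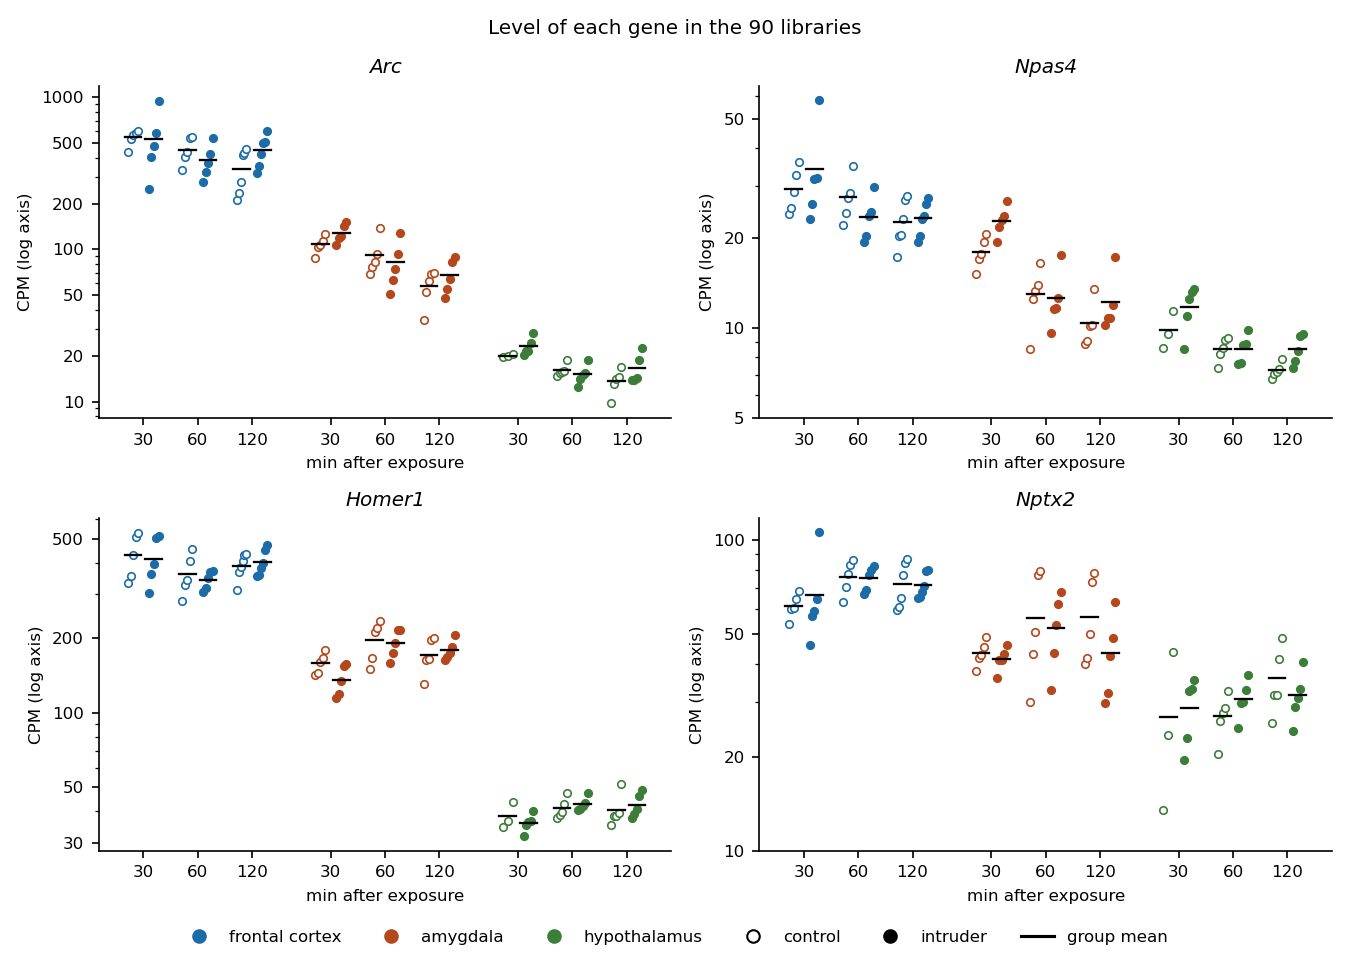
CPM of Arc, Npas4, Homer1 and Nptx2 (log axis) in each of the 90 libraries, by region (colour), minutes after exposure (x axis) and stimulus (open, control; filled, intruder), with a bar at each group mean. The regions form separate bands for Arc and Homer1 and overlap for Npas4 and Nptx2, and control and intruder points overlap in every pair of groups.

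Arc ran from 210 to 942 CPM in the 32 frontal cortex libraries (median 433), from 34.1 to 151 in the 30 amygdala libraries (median 85.5) and from 9.74 to 28.3 in the 28 hypothalamus libraries (median 15.8). The 3 ranges did not touch, and the 6 frontal cortex group means all stood above the 6 amygdala means, which stood above the 6 hypothalamus means. How many of all genes have regional ranges apart was not counted, so this describes the levels only. Arc was 5.07-fold lower in amygdala than in frontal cortex (log2 difference -2.34 ± 0.0658 SE, adjusted p = 1.1e-34, edgeR with the animal as a block) and 24.8-fold lower in hypothalamus (-4.63 ± 0.083, adjusted p = 1.98e-44). The background is high here, since 77% of 18337 genes were called between amygdala and frontal cortex, 87.5% between hypothalamus and frontal cortex and 80.5% between amygdala and hypothalamus, and 35.8% and 42.3% were lower in amygdala and in hypothalamus than in frontal cortex. All 4 members were among these, and their sizes rather than their calls carry the description. The order frontal cortex, amygdala, hypothalamus held in 28 of 28 animals with all 3 regions.

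Homer1 also split into 3 bands, from 281 to 525 CPM in frontal cortex, from 114 to 234 in amygdala and from 32 to 51.5 in hypothalamus, in the same order in 28 of 28 animals. It was 2.28-fold lower in amygdala than in frontal cortex (log2 -1.19 ± 0.0397, adjusted p = 1.37e-31, edgeR) and 9.63-fold lower in hypothalamus (-3.27 ± 0.0467, adjusted p = 3.5e-48). Among animals the ratio of frontal cortex to hypothalamus ran from 7.04 to 14.3 for Homer1 and from 12.5 to 43.8 for Arc. Counts are per gene, so the long Homer1 forms and Homer1a are summed and could not be separated here. The predicted transcripts Gm47075 and Gm47088 overlap 1.91% and 1.55% of the Homer1 span on the same strand.

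Npas4, the transcription factor, differed less between regions. It ran from 17.3 to 58.1 CPM in frontal cortex, from 8.53 to 26.6 in amygdala and from 6.75 to 13.5 in hypothalamus, ranges that overlap at their edges. It was 1.84-fold lower in amygdala than in frontal cortex (log2 -0.88 ± 0.0586, adjusted p = 3.54e-19, edgeR) and 2.89-fold lower in hypothalamus (-1.53 ± 0.063, adjusted p = 1.65e-28). The order held in 27 of 28 animals. By group mean, the amygdala of intruder-exposed animals at 30 min (23.0 CPM) ranked among the frontal cortex groups, between 23.4 and 22.7 CPM of the 120 min intruder and control frontal cortex.

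Nptx2 had the smallest step between amygdala and frontal cortex. It ran from 46.1 to 106 CPM in frontal cortex, from 29.8 to 79.4 in amygdala and from 13.5 to 48.4 in hypothalamus. It was 1.48-fold lower in amygdala than in frontal cortex (log2 -0.57 ± 0.0878, adjusted p = 1e-07, edgeR) and 2.39-fold lower in hypothalamus (-1.25 ± 0.0937, adjusted p = 1.02e-17). The order held in 24 of 28 animals, and in 3 of 30 animals the amygdala exceeded the frontal cortex. Marker lists differed between the regions too. In amygdala 5 of 5 neuron markers and 7 of 7 cortical excitatory markers were lower than in frontal cortex, with medians of -0.54 and -1.26 on the log2 scale. In hypothalamus 7 of 7 cortical excitatory markers were lower than in frontal cortex (median -4.33), while 3 of 5 neuron markers were lower and 1 higher (median -1.26). Oligodendrocyte markers were higher there in 6 of 6 (median 0.605), beside 45.2% of all genes. Microglial and endothelial markers were lower in 5 of 5 each in both comparisons with frontal cortex. Their part in the regional differences was not tested.

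Related genes were compared between amygdala and frontal cortex, where 35.8% of all genes were lower and 41.2% higher. Of 10 rapid transcription factors (Fos, Fosb, Junb, Egr1, Egr2, Egr3, Egr4, Nr4a1, Ier2 and Atf3), 10 were lower in amygdala than in frontal cortex, with a median log2 difference of -1.01 against 0.02 over all genes tested. Of 14 activity-induced effectors such as Bdnf and Vgf, 8 were lower and 6 higher. Of 18 binding partners and relatives, among them Shank scaffolds, metabotropic glutamate receptors and the pentraxins Nptx1 and Nptxr, 9 were lower and 4 higher.

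Whether meeting an intruder moved these genes was asked in each region at each time. No member was called in any of the 36 comparisons of intruder with control. The largest difference upwards was Arc in the frontal cortex at 120 min (log2 0.42) and the largest downwards was Nptx2 in the amygdala at 120 min (-0.39). The smallest adjusted p of the 36 was 0.423 (edgeR's quasi-likelihood test, Benjamini-Hochberg over all genes of the region), and 4 of the 36 had an unadjusted p under 0.05. The background was low as well: 0% of genes were called in 7 of the 9 comparisons, 0.538% in the amygdala at 120 min and 0.192% in the hypothalamus at 120 min. DESeq2 called 0 of the 36.

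**Figure D2:**
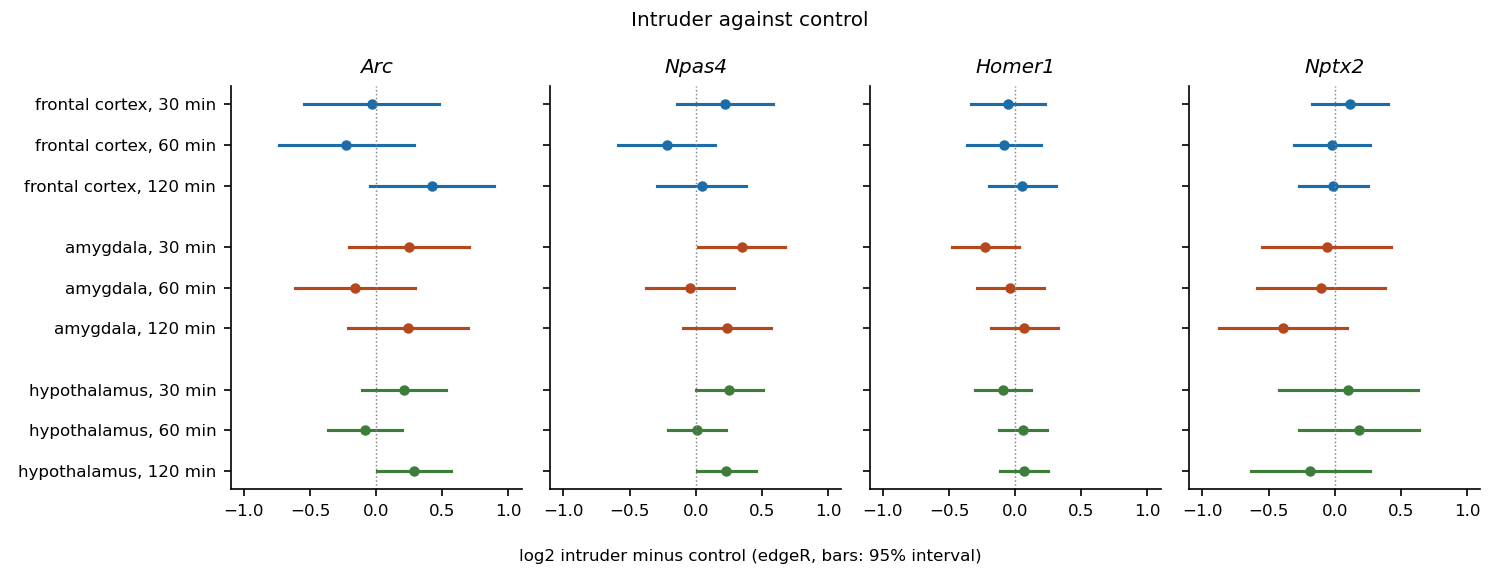
Log2 difference of intruder minus control for Arc, Npas4, Homer1 and Nptx2 (x axis, edgeR estimate with its 95% interval) in each region and time (rows). Most intervals cross 0, and none of the 36 differences passed the threshold after adjustment over all genes.

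Npas4 came nearest. In the amygdala at 30 min the 5 controls read 19.4, 17.1, 17.7, 15.2 and 20.7 CPM, and the 5 intruder libraries read 21.9, 23.0, 26.6, 23.7 and 19.5. Of the intruder libraries 4 of 5 lay above every control, and 1 lay inside their range. The log2 difference was 0.35 ± 0.16 (95% interval 0.02 to 0.68, adjusted p = 1, edgeR). In the hypothalamus at 30 min the 3 controls read 11.4, 8.62 and 9.55 CPM, and the intruder libraries 13.2, 12.5, 13.5, 11.0 and 8.55 (log2 0.25 ± 0.123, adjusted p = 1, edgeR). At 120 min the hypothalamus controls read 7.93, 7.06, 7.33, 7.16 and 6.75, and the intruder libraries 7.37, 7.79, 9.59, 9.46 and 8.42 (log2 0.23 ± 0.108, adjusted p = 0.423, edgeR). Averaged over the 3 times, the hypothalamus difference of Npas4 was 0.16 (95% interval 0.03 to 0.30), with an unadjusted p of 0.0187 in the fit across all genes and an adjusted p of 0.999 (edgeR).

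Arc showed both signs. At 30 min its intruder libraries averaged higher in amygdala (log2 0.25) and hypothalamus (0.21), where 4 of 5 lay above every control. In frontal cortex the 30 min difference was -0.03, and -0.34 without the fourth intruder library. At 60 min they averaged lower in every region (log2 -0.23 in frontal cortex, -0.16 in amygdala, -0.09 in hypothalamus), and at 120 min higher in every region (0.42, 0.24 and 0.29); the regions share animals, so these are not independent. In the frontal cortex at 120 min the 6 controls ran from 210 to 457 CPM (median 348) and the 6 intruder libraries from 316 to 599 (median 463), and 3 of the 6 lay above every control. That difference of 0.42 ± 0.229 (95% interval -0.05 to 0.89, adjusted p = 0.96, edgeR) carries the library index as well, since the 2 groups had different indexes. In the hypothalamus at 120 min the controls read 13, 14.1, 9.74, 14.5 and 16.9 CPM and the intruder libraries 13.8, 13.9, 18.8, 14.2 and 22.4 (0.29 ± 0.137, adjusted p = 0.431, edgeR).

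Homer1 and Nptx2 moved less or varied more. The 9 Homer1 differences ran from -0.23 to 0.07 and their 95% intervals lay between -0.48 and 0.32 on the log2 scale. The 9 Nptx2 differences ran from -0.39 to 0.18, with intervals between -0.88 and 0.64. In the amygdala at 120 min the Nptx2 controls read 78.6, 73.2, 39.9, 41.8 and 49.7 CPM and the intruder libraries 63.1, 42.3, 29.8, 48.5 and 32.2 (log2 -0.39 ± 0.237, adjusted p = 0.429, edgeR). The groups overlap.

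In none of the 36 comparisons did the control and intruder libraries separate without overlap, while between 0.246% and 3.22% of all genes did, depending on the region and time. The intruder difference averaged over times, its change between times and its difference between regions were each called for 0 of 12 tests, with smallest adjusted p of 0.991, 0.622 and 0.776 (edgeR) and 1, 0 and 0 unadjusted p under 0.05. The background was 0% for the average in each region, 0% (0.0113% in hypothalamus) for the change between times, and 0%, 0% and 0.0164% at 30, 60 and 120 min for the difference between regions. The rapid transcription factors were called in 0 of 10 at every region and time too, with medians of both signs. The hypothalamus medians were 0.39, -0.06 and 0.14 at 30, 60 and 120 min, the amygdala medians 0.22, -0.10 and 0.02, and the frontal cortex medians 0.11, -0.23 and 0.12, while the median over all genes lay between -0.008 and 0.003. Effectors (0 of 14) and partners (0 of 18) had no call either.

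Levels of Arc and Npas4 differed with time after the cage was removed in every region. Over control and intruder libraries together, both fell from 30 to 120 min. By estimate the fall was largest in the amygdala, where Arc dropped by 0.92 and Npas4 by 0.85 on the log2 scale, though amygdala and hypothalamus were not called different. Homer1 went the other way in the amygdala and rose by 0.40 from 30 to 60 min. Nptx2 rose by 0.23 from 30 to 60 min in the frontal cortex and was not called elsewhere. Every one of these steps starts at 30 min, the time with its own tag.

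Tested over all 3 times at once, 0 of 12 member and region combinations were called in controls (5 at an unadjusted p under 0.05, smallest adjusted p = 0.0603, edgeR; DESeq2 called 2), 6 of 12 in intruder libraries and 7 of 12 over both. The 6 were Arc, Npas4 and Homer1 in the amygdala, Npas4 in the frontal cortex, and Arc and Npas4 in the hypothalamus, and the seventh was Arc in the frontal cortex, a call lost in 18 of 32 fits without 1 library (adjusted p up to 0.191). Of the 6, the Npas4 call in the frontal cortex was lost without the fourth 30 min intruder library (adjusted p = 0.195, edgeR). In the amygdala, the Homer1 call was lost in 3 such fits (adjusted p up to 0.0716) and the Arc call in 1 (adjusted p = 0.0509). Both hypothalamus calls in intruder libraries were lost when the groups were fitted alone (adjusted p = 0.0667 for Arc and 0.0683 for Npas4, edgeR), and each in 3 of 28 fits without 1 library (adjusted p up to 0.108 and 0.0824). The background in amygdala, frontal cortex and hypothalamus was 0.232%, 33.4% and 0.181% of genes in controls, 12.9%, 46.1% and 1.49% in intruder libraries, and 11.3%, 58% and 2.84% over both. The change between times was not called different between stimuli for any member.

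**Figure D3:**
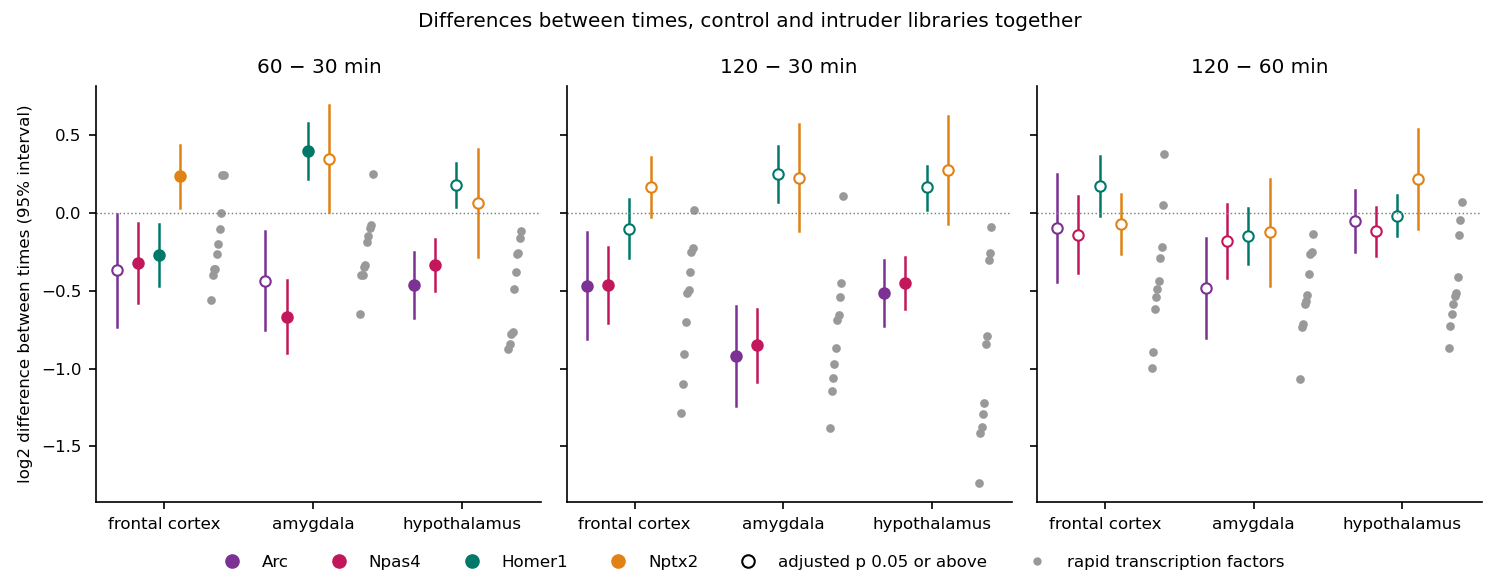
Log2 differences between times (y axis, edgeR, 95% interval) over control and intruder libraries together, for the 4 genes in each region (filled, adjusted p under 0.05; open, not called) and, in grey, for 10 rapid transcription factors. Arc and Npas4 lie below 0 in the panels that start at 30 min, and no member is filled in the panel of 120 minus 60 min, where most grey points lie below 0.

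In the amygdala Arc ran from 88.2 to 151 CPM at 30 min (median 116), from 51.0 to 139 at 60 min (median 79.6) and from 34.1 to 89.1 at 120 min (median 62.8), each over 10 libraries. The 30 and 120 min ranges met only at their edges. The drop from 30 to 120 min was 0.92 in controls (108 ± 14.2 to 57.2 ± 14.7 CPM, SD, n = 5; log2 -0.92 ± 0.223, adjusted p = 0.0938, edgeR, not called) and 0.92 in intruder libraries (128 ± 18.2 to 67.6 ± 17.8 CPM; -0.92 ± 0.223, adjusted p = 0.00648, edgeR). The background differed as much as the calls, with 0.145% of genes called in controls and 15% in intruder libraries. The difference between these 2 drops was not tested by itself, and the test of the intruder difference over all 3 times was not called (adjusted p = 0.694, edgeR).

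Npas4 in the amygdala read 15.2 to 26.6 CPM at 30 min, 8.53 to 17.6 at 60 min and 8.89 to 17.3 at 120 min. Over both stimuli the log2 change was -0.67 from 30 to 60 min, where the tag also changes. From 60 to 120 min it was -0.18 and not called (adjusted p = 0.585, edgeR). In controls the change from 30 to 60 min was -0.47 and not called (adjusted p = 0.264, edgeR). In intruder libraries Npas4 was 23.0 ± 2.58 CPM at 30 min, 12.6 ± 2.98 at 60 min and 12.2 ± 2.90 at 120 min (SD, n = 5), a log2 change of -0.86 ± 0.162 from 30 to 60 min (adjusted p = 0.00255, edgeR; 7.41% of genes called) and of -0.91 ± 0.162 from 30 to 120 min (adjusted p = 0.000643). In controls it was 18 ± 2.11, 13 ± 2.92 and 10.4 ± 1.83 CPM, and the change from 30 to 120 min was -0.79 ± 0.163 (adjusted p = 0.0401, edgeR). That control call was lost in 10 of 30 fits that left out 1 library (adjusted p between 0.0197 and 0.115) and with the groups fitted alone (adjusted p = 0.0918). Over both stimuli the change was -0.85 ± 0.115 (adjusted p = 3.73e-05, edgeR; 9.78% called), and it held in 30 of 30 such fits.

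Homer1 in the amygdala read 114 to 179 CPM at 30 min, 150 to 234 at 60 min and 130 to 205 at 120 min. In intruder libraries the values were 134, 114, 119, 156 and 154 at 30 min and 215, 190, 215, 158 and 173 at 60 min. The rise of 0.49 ± 0.124 (adjusted p = 0.016, edgeR; 7.41% called) ended when the third 30 min or the first 60 min intruder library was left out (adjusted p up to 0.0555). Over both stimuli the rise was 0.40 ± 0.0876 (adjusted p = 0.00477, edgeR; 9.10% called). The step from 60 to 120 min was -0.15 and not called. Tissue markers moved over the same 30 to 60 min step: over both stimuli 3 of 7 amygdala markers were lower (median -0.37), 3 of 5 astrocyte markers higher (median 0.19) and 1 of 7 cortical excitatory markers higher (median 0.17). Of 7 hypothalamic markers tested, 1 was lower (median -0.41). From 30 to 120 min, the step of the Arc and Npas4 drops, 4 of 5 endothelial markers (Cldn5, Flt1, Pecam1, Cdh5 and Ly6c1) were lower (median -0.505) and 3 of 5 astrocyte markers higher (median 0.14). In intruder libraries the endothelial score went from between 4.50 and 4.87 at 30 min to between 3.85 and 4.37 at 120 min, and the astrocyte score from between 8.23 and 8.33 to between 8.39 and 8.64, neither with overlap. In controls both scores overlapped between these times, and 0 of 5 markers of either list were called. The part of these markers in the amygdala time changes was not tested.

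These amygdala calls did not survive a term for the leading library index, where 0 of 4 members were called over time. Under that term the changes from 30 to 120 min in intruder libraries were -0.86 for Arc (adjusted p = 0.675), -0.81 for Npas4 (0.552) and 0.06 for Homer1 (0.988, edgeR), with no call. The Homer1 rise from 30 to 60 min in intruder libraries was 0.44 under it (adjusted p = 0.763). In controls the Npas4 change went from -0.79 to -0.51 (adjusted p = 0.807). Index and group overlap strongly here.

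In the hypothalamus Arc read 19.5 to 28.3 CPM at 30 min (8 libraries), 12.4 to 18.8 at 60 min and 9.74 to 22.4 at 120 min (10 libraries each). Over both stimuli Arc changed by -0.46 ± 0.102 from 30 to 60 min (adjusted p = 0.0262, edgeR; 1.21% called) and by -0.52 ± 0.103 from 30 to 120 min (adjusted p = 0.00533; 2.90% called). The 30 to 60 min call was lost in 5 of 28 fits without 1 library (adjusted p up to 0.061) and under the term for the library index (-0.36, adjusted p = 0.513). Npas4 read 8.55 to 13.5, 7.38 to 9.87 and 6.75 to 9.59 CPM at the 3 times and changed by -0.45 ± 0.0814 from 30 to 120 min (adjusted p = 0.00227, edgeR). Both 30 to 120 min changes held in 28 of 28 fits without 1 library. Endothelial markers moved over the same step here as well: over both stimuli 2 of 5 were lower (median -0.33), as was 1 of 7 striatal markers (median -0.18), and their part in these changes was not tested. In intruder libraries 5 of 5 endothelial markers were lower (median -0.61), and their score went from between 4.33 and 4.43 at 30 min to between 3.52 and 4.07 at 120 min, with no overlap. In controls 0 of 5 were called (median -0.04). At 120 min 2 of 5 were lower in intruder than in control hypothalamus libraries (median -0.56). In intruder libraries alone, Npas4 changed by -0.46 ± 0.107 (adjusted p = 0.0193, edgeR; 1.93% called), a call lost without intruder library 1, 2 or 3 of 30 min (adjusted p up to 0.0666) and with the groups fitted alone (adjusted p = 0.0648). Homer1 (0.16 ± 0.0688, adjusted p = 0.232) and Nptx2 (0.28 ± 0.169, adjusted p = 0.446) were not called.

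In the frontal cortex the background was far higher, with 26.6% of genes called from 30 to 120 min and 55.7% from 30 to 60 min over both stimuli. Arc changed by -0.47 ± 0.169 from 30 to 120 min (adjusted p = 0.0392, edgeR) and Npas4 by -0.46 ± 0.121 (adjusted p = 0.00527). Without the fourth 30 min intruder library, which read 942 CPM for Arc and 58.1 for Npas4, the change was -0.31 for Arc (adjusted p = 0.137) and -0.32 for Npas4 (adjusted p = 0.0149, edgeR). The Arc call was lost in 12 of 32 fits without 1 library (adjusted p up to 0.137), and the Npas4 call in 0 of 32. Within intruder libraries alone Npas4 changed by -0.54 from 30 to 60 min (adjusted p = 0.0135; 45.5% called) and by -0.55 ± 0.17 from 30 to 120 min (adjusted p = 0.0246; 17.7% called), and without that library by -0.27 (adjusted p = 0.15) and -0.27 (adjusted p = 0.194, edgeR). With the groups fitted alone, the 30 to 120 min call was also lost (adjusted p = 0.0642). Homer1 changed by -0.27 ± 0.0976 from 30 to 60 min (adjusted p = 0.0184, edgeR), opposite in sign to the amygdala, though its test over all 3 times was not called (adjusted p = 0.0508).

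Nptx2, the pentraxin, read 46.1 to 106 CPM in the frontal cortex at 30 min (median 60.3), 63.3 to 86.4 at 60 min (median 77.4) and 59.7 to 87.1 at 120 min (median 69.7). It rose by 0.23 ± 0.0993 from 30 to 60 min (adjusted p = 0.0448, edgeR), and without the fourth 30 min intruder library, its highest value, by 0.35 (adjusted p = 0.000239) with a rise of 0.28 to 120 min (adjusted p = 0.00568). Leaving out any 1 of 13 other libraries ended the 30 to 60 min call (adjusted p up to 0.101), as did the fit with no filter on low counts (adjusted p = 0.0553, edgeR). The test over all 3 times was not called (adjusted p = 0.104; 0.000589 without the fourth library, edgeR). Oligodendrocyte markers rose in the same libraries, 6 of 6 from 30 to 60 min (median 0.73) and 6 of 6 from 30 to 120 min (median 0.49). Of 5 astrocyte markers 4 were lower at 60 than at 30 min (median -0.28) and 3 at 120 min (median -0.19). Blood markers (Hba-a1, Hba-a2, Hbb-bt, Hbb-bs and Alas2) were higher at 60 than at 30 min in 5 of 5 (median 0.60). Their score went from between 3.48 and 4.0 to between 4.15 and 4.41 in controls and from between 3.33 and 3.97 to between 3.99 and 4.62 in intruder libraries, without overlap in either. Smaller counts moved in other lists over that step: 3 of 7 cortical excitatory markers were higher and 3 lower, 1 of 5 endothelial markers higher and 2 lower, 2 of 5 microglial and 1 of 5 neuron markers higher, and 1 of 7 amygdala markers higher. The share of reads in no feature ran from 10.99% to 13.19% in the 30 min libraries and from 8.63% to 10.29% in the 60 min libraries, without overlap. The part of these in the frontal cortex time changes was not tested.

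From 60 to 120 min, within 1 tag, no member was called in any region, in controls, intruder libraries or both together (0 of 12 each, edgeR, with 2, 0 and 1 unadjusted p under 0.05), nor in fits without the 30 min libraries, nor by DESeq2. In amygdala, frontal cortex and hypothalamus the background was 0.0232%, 15.9% and 0.0396% in controls, 0.0695%, 22.9% and 0.441% in intruder libraries, and 0.365%, 37.6% and 0.373% over both. The largest change was that of Arc in the amygdala, -0.69 in controls (adjusted p = 0.276) and -0.48 ± 0.157 over both stimuli (adjusted p = 0.193, edgeR). Of the 10 rapid transcription factors, 5 were lower at 120 than at 60 min in the amygdala (Fos -0.73, Egr2 -1.06), 6 lower and 1 higher in the frontal cortex, and 5 lower in the hypothalamus (Fos -0.87, Egr1 -0.73). From 30 to 120 min, 9, 7 and 7 of the 10 were lower in amygdala, frontal cortex and hypothalamus, beside 3.24%, 13% and 1.24% of all genes. Of 18 partners of the members in the frontal cortex, 12 were lower and 4 higher at 60 than at 30 min, a step at which 27.9% of all genes were lower and 27.8% higher. They included Homer2 (-0.34) and the pentraxin receptor Nptxr (-0.49), both lower, and Homer3 (0.20), higher.

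The change from 30 to 120 min differed between regions for 2 of the 4 genes, Npas4 (adjusted p = 0.0446) and Homer1 (adjusted p = 0.0219, edgeR with the animal as a block), against a background of 22.4% of genes (23.5% between amygdala and frontal cortex). Npas4 fell further in the amygdala than in the frontal cortex, by 0.42 on the log2 scale (-0.42 ± 0.143, adjusted p = 0.0273), as did Arc (-0.43 ± 0.154, adjusted p = 0.0355), though the test of Arc over all 3 regions was not called (adjusted p = 0.06). Between amygdala and hypothalamus neither was called (Npas4 -0.385 ± 0.154, adjusted p = 0.424, and Arc -0.396 ± 0.169, adjusted p = 0.457, edgeR). There 0.00545% of genes were called. Homer1 differed the other way between amygdala and frontal cortex, by 0.33 ± 0.096 (adjusted p = 0.00964). Its own change from 30 to 120 min over both stimuli was called in neither region. It was 0.25 in amygdala (adjusted p = 0.0689) and -0.10 in frontal cortex (adjusted p = 0.452, edgeR). For Nptx2 no difference was called (0.02 ± 0.214 between amygdala and frontal cortex, 95% interval -0.41 to 0.45). From 60 to 120 min Homer1 was the 1 member called between regions (adjusted p = 0.0283; 27.4% of genes called). The calls were unsteady: limma voom called 3 of 4, the fit without the animal block 0 of 4, and leaving out 1 animal at a time, by limma voom, gave 0 to 3 (0 without the fifth control animal of 30 min).

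Animals differed from each other within groups, and the members partly shared that spread. Of 30 correlations of deviations from group means, 18 between members within a region and 12 of a member between regions of the same animals, 5 had an adjusted p under 0.05 for Pearson's r (permutation within groups). Arc in frontal cortex and Arc in amygdala of the same 30 animals rose and fell together (r = 0.64, adjusted permutation p = 0.0048; rho = 0.70, adjusted permutation p = 0.0063; r = 0.74 without the 2 farthest animals). Arc followed Homer1 in the amygdala (r = 0.64, adjusted permutation p = 0.0102; rho = 0.60, adjusted permutation p = 0.0217; r = 0.63 without the 2 farthest). These 2 held without the 2 farthest libraries.

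The other 3 did not hold without the 2 farthest libraries. Arc and Npas4 in the amygdala had r = 0.64 and rho = 0.54 (adjusted permutation p = 0.0178 and 0.0357), and r = 0.50 without them (adjusted permutation p = 0.0866). Homer1 and Nptx2 in the frontal cortex had r = 0.58 and rho = 0.55 (adjusted permutation p = 0.0178 and 0.0217), and then 0.49 (0.0853). Homer1 in frontal cortex and hypothalamus had r = 0.53 and rho = 0.60 (adjusted permutation p = 0.0428 and 0.0217), and then 0.43 (0.194). In the hypothalamus Arc and Npas4 showed r = 0.10, with a rho of 0.06 (adjusted permutation p = 0.70 and 0.76).

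Nptx2 levels followed a marker score among the amygdala libraries. In 24 further correlations of members with the cortical and striatal marker scores, added after the values were seen, Nptx2 in the amygdala followed the cortical excitatory score (r = 0.87, adjusted permutation p = 0.00048; rho = 0.83, adjusted permutation p = 0.00024; r = 0.81 without the 2 farthest) and ran against the striatal score (r = -0.57, adjusted permutation p = 0.0249; rho = -0.54, adjusted permutation p = 0.0466). Arc in the amygdala showed r = 0.30 with the cortical score (rho = 0.26), and Npas4 r = -0.01 (rho = -0.02), neither called (adjusted permutation p = 0.351 and 0.961). Arc followed the cortical score in the hypothalamus, where that score ran from 2.35 to 3.81 (r = 0.63, adjusted permutation p = 0.0249; rho = 0.72, adjusted permutation p = 0.00036).

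**Figure D4:**
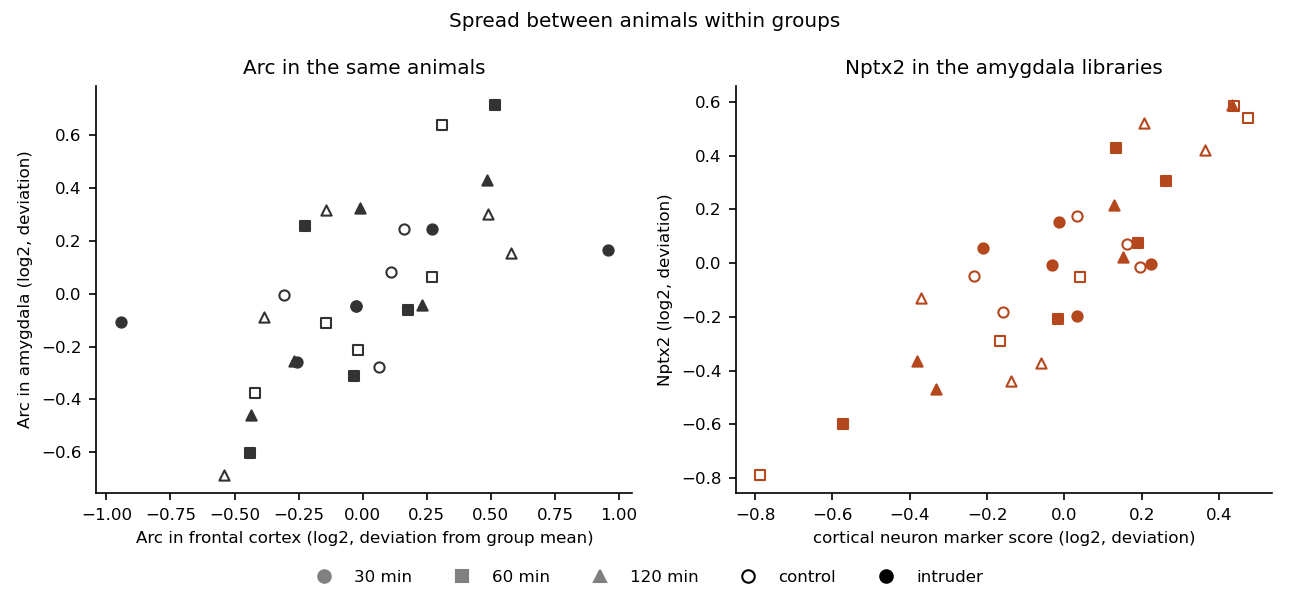
Deviations from group means on the log2 scale: Arc in frontal cortex against Arc in amygdala of the same 30 animals (left), and the cortical excitatory marker score against Nptx2 in the 30 amygdala libraries (right), with symbols for time and fill for stimulus. Both clouds slope upwards (r = 0.64 and r = 0.87).

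The genes most like each member were ranked by Pearson's r of log2 CPM among 16635 genes, as a description in which points share animals and scaling. Over the 18 group means Arc was nearest to Dusp6, a phosphatase that turns off ERK kinases (r = 0.994), Tnfrsf25 (0.992) and Plcd3 (0.992), and Npas4 to Dusp1, a related phosphatase (0.986), the nuclear receptor gene Nr4a1 (0.967) and the microRNA locus Mir132 (0.964). Homer1 was nearest to Sept11 (0.999), Cap2 (0.998) and Dclk1 (0.998), and Nptx2 to Sub1 (0.984), Eif4ebp1 (0.981) and Klf13 (0.980). Such values over group means mostly follow the regions.

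Over deviations within groups in the 90 libraries, which leave region and time out, Arc was nearest to Dusp1 (r = 0.835), Nr4a1 (0.825) and Trib1 (0.790). Npas4 was nearest to Nr4a1 (0.661), 1700016P03Rik (0.659), whose span holds Mir132 so that the reads of these 2 may be shared, and Fos (0.635). Homer1 was nearest to Spred1, an inhibitor of the Ras to ERK pathway (0.778), the transcription factor gene Egr3 (0.732) and Cx3cl1 (0.727). Nptx2 was nearest to Lipg (0.868), Rasl10a (0.748) and the cholecystokinin receptor gene Cckbr (0.746).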

How the data were processed

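RNA-seq counts per gene were deposited by the authors as whole, unnormalised read counts for 90 libraries; per the submitters' processing notes CASAVA 1.8.2, TopHat2 2.0.8, HTSeq 0.6.1, edgeR 3.2.4 and R 3.0.0 were used with build NCBIM37, and the annotation release and strand setting are not given in the sources used here. Of 37991 genes 32919 had a symbol in GENCODE M21. The 5 rows that name no gene (between 8.63% and 14.46% of a library in no feature, 9.79% to 11.5% not unique) stayed out of library sizes.

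The counts were tested with edgeR 4.0.16 in R 4.3.3 (filterByExpr, TMM, quasi-likelihood F test, trended dispersion, Benjamini-Hochberg over all genes tested, called at an adjusted p under 0.05), with 1 fit of 6 groups per region, and 1 fit of all 90 libraries with the animal as a block. An SE is the log2 difference over the root of F. DESeq2 1.42.0 and limma 3.58.1 served as alternatives. Correlations used log2(CPM + 1) and 100000 permutations within groups, two-sided. Scripts were tested on simulated data. No 2 libraries of a group were alike within sampling noise (183 pairs, lowest chi-square per degree of freedom 4.21).

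The members and gene lists were chosen with earlier results of these data known. Named genes are the 4 members, genes of 3 lists (rapid factors, effectors, partners), and the 3 genes most like each member by group means and by deviations. Times over both stimuli and the marker correlations were added after the data were seen.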

Additional observations from a re-analysis of the deposited data

Results flagged for a closer look

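A sample far from its group was looked for in 68 groups of 4 or more libraries (136 tests of the highest and lowest), and 4 were found, where chance gives about 1 in 20 groups. Arc was 18.8 CPM in the second 60 min control hypothalamus, next to 15.8. Homer1 was 51.5 CPM in the second 120 min control hypothalamus, next to 39.3. Npas4 was 17.3 CPM in the third 120 min intruder amygdala, next to 12.0, and 58.1 CPM in the fourth 30 min intruder frontal cortex, next to 31.8.

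The change from 30 to 120 min differed between regions for Npas4 (adjusted p = 0.0446) and Homer1 (adjusted p = 0.0219, edgeR with the animal as a block). Both calls were lost without the animal block (0.0877 and 0.0685).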

How the results depend on the processing

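No alternative called a member between intruder and control: upper-quartile scaling, no filter on low counts, DESeq2, groups fitted alone, the replicate block, the library index block (32 of 36 comparisons could be estimated) and 90 fits without 1 library each gave 0 calls. The 12 regional calls held in every alternative run. No called value reversed. For times in controls, called 0 times of 12, DESeq2 gave 2, groups alone 1, the replicate block 1 and upper-quartile scaling 1, and leaving out 1 library gave 0 to 1. For times in intruder libraries, called 6 times, leaving out 1 library gave 4 to 6, and for times over both stimuli, called 7 times, 6 to 8. With the library index block, which could be estimated in 4 of 12 tests, both fell to 0 from 3. For the change over time between regions, called 2 times, no block for the animal gave 0, no filter 1, and leaving out 1 animal 0 to 3, by limma voom, since the edgeR fits without 1 animal were not run. Correlations fell from 5 calls to 2 without the 2 farthest libraries. The cause of these losses was not tested. Replicate numbers share only a number across stimuli: the deviations of same-numbered libraries correlated between -0.65 and 0.68 and no set had every pair above 0.1. Under the replicate block the frontal cortex calls of Arc over both stimuli were lost (adjusted p = 0.133 over all times, 0.102 from 30 to 120 min), as was Npas4 there from 30 to 60 min (0.0591) and Homer1 in amygdala intruder libraries from 30 to 120 min (0.076). Groups fitted alone gave 4 calls over times in intruder libraries. With groups of 3 to 6 libraries, the intervals given show how precise each difference is. They are not a detection limit, since calls were adjusted over all genes, and small differences may have been missed.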
